A study of Mus musculus with 6 samples.

Results

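Polycomb repressive complex 1 (PRC1) and Polycomb repressive complex 2 (PRC2) were examined through 10 of their subunit genes, out of 41669 genes in the table. PRC2 was represented by Ezh1, Ezh2, Eed, Suz12 and Jarid2, and PRC1 by Ring1, Rnf2, Pcgf3, Pcgf5 and Rybp. The genes were taken by name and not by a cut on their values, but they were chosen with earlier results of these data known. The RNA came from B cells of the spleen of NZB/W F1 mice, a cross prone to lupus, with 3 libraries from females and 3 from males, 1 per mouse. All 6 mice were at the late disease stage. All B cells had been isolated on a positive-selection column and cultured for 24 h with CpG, DNA that stimulates B cells through an innate receptor and sets them dividing. The 2 groups therefore shared strain, disease, stage and treatment and differed by sex, and neither unstimulated cells nor mice without disease enter this comparison. The female libraries held between 24089561 and 35659883 estimated counts, and the male ones between 27402953 and 33205284.

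Polycomb proteins keep genes silent through histone marks. PRC2 methylates lysine 27 of histone H3 through EZH2 or its paralog EZH1, which work only together with EED and SUZ12, and JARID2 is an accessory subunit that helps recruit the complex. PRC1 attaches ubiquitin to lysine 119 of histone H2A through the RING proteins RNF2 (RING1B) or RING1 (RING1A), which pair with a PCGF protein. Forms with PCGF3 or PCGF5 and RYBP are recruited by Xist RNA and start the Polycomb marking of the inactive X chromosome, the subject of the series title. In B cells EZH2 is known to accompany proliferation, while EZH1 is known from resting cells. The comparison asks whether activated B cells of diseased females and males differ in the RNA of this machinery.

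The promoters of Ezh2 and Ezh1 are shown because the levels of this catalytic pair differed widely. They are from RefSeq on GRCm38.p6 and run from 250 bases before to 50 bases after the transcription start. Ezh2 is at chr6:47594981-47595280 and Ezh1 at chr11:101226414-101226713, both on the minus strand and written 5′ to 3′ along the gene. Capitals mark an E2F-type word, the binding sequence of the E2F factors of the cell cycle, searched as TTTCCCGC, TTTCGCGC, TTTGCCGC and TTTGGCGC on both strands.
Ezh2: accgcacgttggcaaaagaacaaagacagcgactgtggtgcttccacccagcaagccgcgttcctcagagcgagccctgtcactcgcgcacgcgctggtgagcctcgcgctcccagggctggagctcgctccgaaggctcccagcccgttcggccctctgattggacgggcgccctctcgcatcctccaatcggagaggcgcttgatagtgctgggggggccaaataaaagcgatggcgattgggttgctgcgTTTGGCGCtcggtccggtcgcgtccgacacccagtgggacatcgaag
Ezh1: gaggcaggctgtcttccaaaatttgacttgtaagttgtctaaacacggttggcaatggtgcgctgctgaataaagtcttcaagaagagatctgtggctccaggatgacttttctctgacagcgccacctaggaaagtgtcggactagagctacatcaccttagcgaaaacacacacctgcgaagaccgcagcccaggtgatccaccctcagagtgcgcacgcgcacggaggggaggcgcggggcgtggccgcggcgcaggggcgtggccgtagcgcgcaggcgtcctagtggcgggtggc
The Ezh2 window held 1 such word, at position 254 counted from its 5′ end, and 31 CpG dinucleotides. The Ezh1 window held 0 words and 23 CpG dinucleotides. Of 32851 RefSeq promoter windows of this length, 2.26% held a word. Among the 9 members with a window in this table, the word was also found in that of Suz12 and in no other, counting all windows of members with several start sites. A match describes letters in the window and was not tested for binding.

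Levels are given first as CPM, estimated counts scaled to a common library total. Suz12, the scaffold subunit of PRC2, had 1271, 1207 and 1140 CPM in female replicates 1 to 3 and 1099, 1037 and 1217 CPM in male replicates 1 to 3. Ezh2 had 470.6, 482.8 and 486.8 CPM in the females and 447.0, 335.1 and 446.9 CPM in the males. Eed, the subunit that binds methylated H3 and stimulates the enzyme, had 262.0, 264.7 and 239.1 CPM in the females and 279.9, 288.6 and 256.6 CPM in the males. The sexes overlapped for Suz12 and Eed, while for Ezh2 every female library lay above every male one, with male replicate 2 the lowest of the 6. The other PRC2 genes were far lower. Jarid2 had 25.0, 25.1 and 26.2 CPM in the females and 19.5, 25.8 and 24.2 CPM in the males. Ezh1 had 10.7, 13.8 and 7.18 CPM in the females and 11.6, 12.9 and 12.1 CPM in the males, so both its highest and its lowest library were female.

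Within PRC1, Rnf2 had the highest CPM, with 186.1, 211.9 and 233.2 in female replicates 1 to 3 and 188.5, 170.9 and 209.6 in male replicates 1 to 3. Rybp, whose protein binds ubiquitinated H2A and stimulates RNF2, had 119.1, 140.4 and 143.3 CPM in the females and 132.8, 127.5 and 126.4 CPM in the males. Pcgf3 had 45.3, 41.6 and 56.6 CPM in the females and 39.0, 43.7 and 40.5 CPM in the males. All 3 genes overlapped between the sexes, and female replicate 3 was the highest library for each. Pcgf5 varied most, with 8.04, 13.7 and 8.81 CPM in the females and 10.7, 5.97 and 6.26 CPM in the males. Ring1 was the lowest of the 10 genes, with 0.713, 0.779 and 0.384 CPM in the females and 1.08, 0.768 and 0.727 CPM in the males. These Ring1 values rest on 13.7 to 33.9 estimated counts per library, above the lowest level that 3 counts allow (0.0841 to 0.125 CPM). Over the 6 libraries the coefficient of variation was 32.9% for Pcgf5, 29.7% for Ring1 and 20.3% for Ezh1. It lay between 6.59% (Eed) and 14.4% (Pcgf3) for the other 7 genes.

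**Figure D1:**
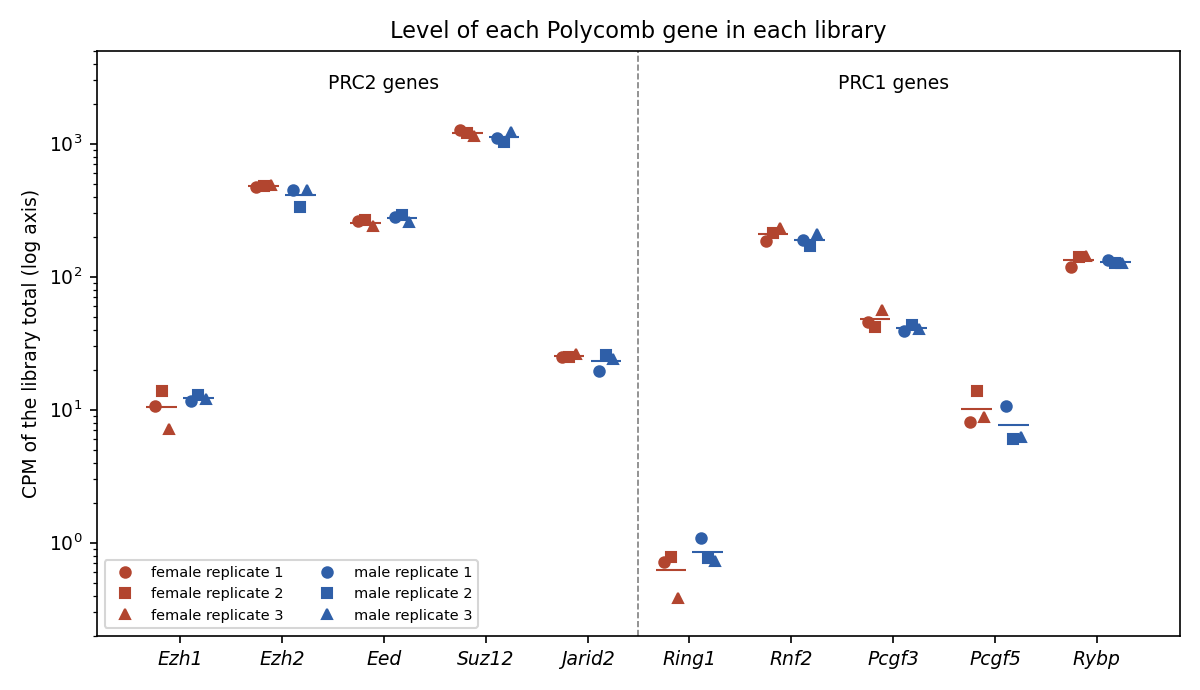
CPM of the library total on a log axis for the 5 PRC2 and the 5 PRC1 genes, with female libraries left of male ones, a point per library and a line at each mean of 3. The genes span from 0.384 CPM (Ring1) to 1271 CPM (Suz12), and of the 10 genes only Ezh2 has every female library above every male one.

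Levels of different genes were compared as CPM per kilobase of the longest coding transcript. Suz12 was highest with 265.7 ± 19.7 CPM per kb (SD over all 6 libraries, as in this paragraph), followed by Ezh2 with 159.6 ± 20.2, Eed with 128.3 ± 8.45 and Rnf2 with 62.5 ± 7.004. Rybp had 29.2 ± 2.02 CPM per kb, Pcgf3 5.77 ± 0.829, Jarid2 4.05 ± 0.406, Ezh1 2.71 ± 0.551, Pcgf5 1.39 ± 0.456 and Ring1 0.364 ± 0.108. The ranges of neighbours in this order overlapped for Ezh2 and Eed, for Jarid2 and Ezh1 and for Ezh1 and Pcgf5, and not for the other 6 pairs. Within a library, Ezh2 exceeded Eed in 5 of 6, the exception being male replicate 2. The order depended on the transcript assumed. With the median length of the coding transcripts Suz12 had 267.8 CPM per kb, Eed 238.7, Ezh2 185.9 and Rnf2 180.8. With the shortest, Ezh2 led with 566.7 CPM per kb, ahead of Rnf2 with 414.9. Among the lower genes, Pcgf5 passed Ezh1 with the median length (6.43 against 2.72 CPM per kb), and Jarid2 passed Rybp with the shortest (70.6 against 29.2). Ring1 was lowest with each of the 3 lengths.

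Among the catalytic pair of PRC2, Ezh2 was the major transcript in every library. Per kilobase, the ratio of Ezh2 to Ezh1 was 66.3, 52.7 and 102.3 in female replicates 1 to 3 and 58.0, 39.2 and 55.8 in male replicates 1 to 3. The sexes overlapped, and the highest ratio was in female replicate 3, which had the lowest Ezh1 CPM. On the log2 scale of CPM, where the lengths cancel in the difference between the sexes, the ratio averaged 5.56 ± 0.49 in females and 5.06 ± 0.31 in males (SD, n = 3 each). The difference of 0.50 was not distinguishable from the spread between mice (2-sided exact permutation test, p = 0.3, where 3 against 3 allows no p under 0.1). Without female replicate 3 the difference was 0.23, and without male replicate 2 it was 0.32 (exact permutation p = 0.6 for both). Leaving out a library allows fewer arrangements, so this p is coarser, and the smallest with any library left out was 0.2. The geometric mean of the ratio per kilobase over the 6 libraries was 59.7, and 53.7 without female replicate 3. It was 69.4 with median and 183.3 with shortest transcript lengths. RNF2 and RING1 form the corresponding pair of PRC1. The ratio of Rnf2 to Ring1 per kilobase was 165.7, 172.8 and 386.4 in the females and 111.3, 141.4 and 183.1 in the males, and the low Ring1 counts limit its precision. Pcgf3 exceeded Pcgf5 in every library, with ratios per kilobase from 2.53 to 6.11, but this order rests on the longest transcripts. With the median lengths Pcgf3 averaged 9.0 CPM per kb and Pcgf5 6.43, and with the shortest Pcgf3 averaged 20.5 and Pcgf5 20.8. The ratio of Rnf2 to Ring1 rests on the lengths too, since Rnf2 averaged 62.5, 180.8 and 414.9 CPM per kb with the longest, median and shortest transcripts and Ring1 0.364 with each.

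The summed level of the 5 PRC2 genes exceeded that of the 5 PRC1 genes in all 6 libraries. PRC2 summed to 592.9, 584.8 and 557.1 CPM per kb in female replicates 1 to 3, against 553.1, 504.4 and 569.6 in the males. PRC1 summed to 92.1, 105.3 and 113.6 CPM per kb in the females and to 95.6, 88.6 and 100.1 in the males. The ratio of the sums was 6.44, 5.55 and 4.90 in the females and 5.78, 5.69 and 5.69 in the males, so the 3 male values lay close together inside the female range. The PRC2 sum was made up of Suz12 at 47.4%, Ezh2 at 28.4% and Eed at 23.0%, while Rnf2 made up 62.9% and Rybp 29.5% of the PRC1 sum. Without Suz12 the ratio of PRC2 to PRC1 ran from 2.61 to 3.28. With Suz12 included, the geometric mean of the ratio over the 6 libraries was 5.66 with the longest, 3.13 with the median and 2.59 with the shortest coding transcripts, so the size of this ratio rests on the lengths assumed. On the log2 scale of summed CPM, PRC2 over PRC1 averaged 2.30 ± 0.20 in females and 2.32 ± 0.03 in males (SD, n = 3 each), a difference (female minus male) of -0.02. These sums cover the 10 listed genes and not whole complexes.

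**Figure D2:**
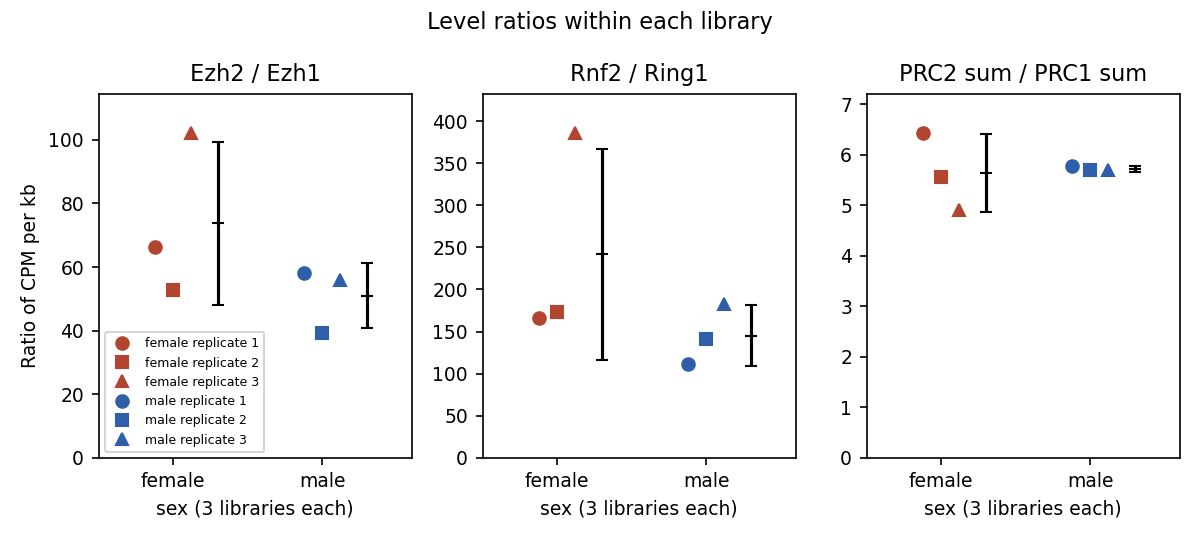
Ratio of CPM per kb in each library for Ezh2 over Ezh1, Rnf2 over Ring1 and the PRC2 sum over the PRC1 sum, female libraries left of male ones, with the mean and SD of 3 in black. Ezh2 to Ezh1 runs from 39.2 to 102.3 and PRC2 to PRC1 from 4.90 to 6.44, and the sexes overlap in all 3 panels.

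GC content moved with the level of genes in these libraries. Over the tested genes divided into 4 bins of equal size by the GC content of the longest transcript, the median level was 12.8 CPM per kb in the lowest bin and 8.03, 3.89 and 1.26 in the next 3. Ring1, with 60.7% GC, belonged to the highest bin. Its chromosome 17 neighbours H2-K1, a major histocompatibility class I gene, and Rxrb averaged 20.98 and 2.08 CPM at 56.3 and 61.4% GC. The adjacent H2-Ke6 averaged 0.353 CPM at 59.2% GC, below the 0.741 CPM of Ring1. The other 3 neighbours examined (Rps18, Vps52 and Slc39a7) lay between 4.20 and 9.88 CPM. These neighbour levels were not divided by transcript length, so they do not rank the genes per kilobase. Rnf2 (39.5% GC), Pcgf5 (40.4%), Suz12 (41.6%), Rybp (43.6%) and Pcgf3 (43.7%) belonged to the lowest bin, Ezh2 (44.4%) and Eed (47.8%) to the second, and Jarid2 (49.1%) and Ezh1 (51.2%) to the third. Set against the genes of its own bin, Ezh2 was at percentile 96.7 and Ezh1 at percentile 42.6. These are different bins, so the pair was not compared at like GC content. The ratio of Rnf2 to Ring1 was not either, since Rnf2 belonged to the lowest bin and Ring1 to the highest. Suz12 was at percentile 96.3, Eed at 95.7, Rnf2 at 83.2 and Rybp at 67.6 of their bins. Jarid2 was at percentile 50.8, Pcgf3 at 38.3, Pcgf5 at 23.4 and Ring1 at 22.3. The part of GC content in the level of any single gene was not tested.

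**Figure D3:**
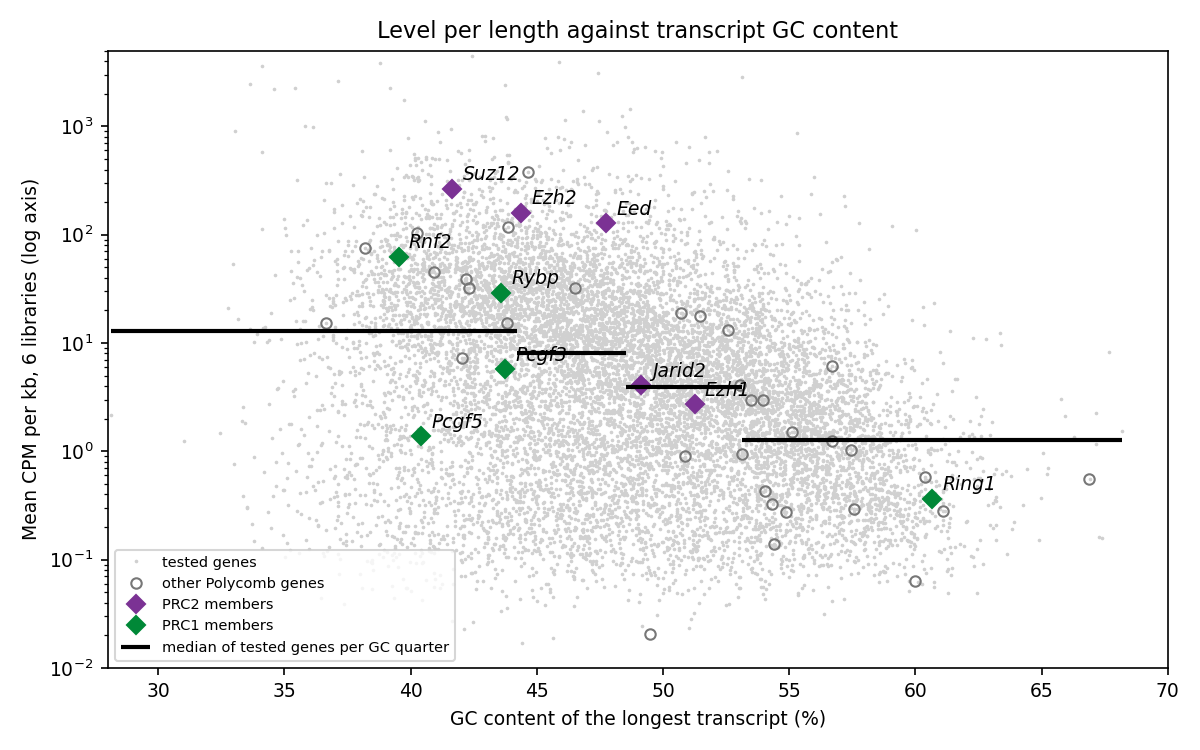
Mean CPM per kb over 6 libraries on a log axis against the GC content of the longest transcript, for tested genes (grey points), the 10 members (diamonds) and other Polycomb genes (circles), with black lines at the median of each GC bin. The medians fall with GC content, from 12.8 to 1.26 CPM per kb. Ezh2, Eed and Suz12 lie far above the median of their bin, while Ezh1, Pcgf3, Pcgf5 and Ring1 lie below theirs.

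No member differed between females and males past the threshold. In total RNA of a culture, fewer cells of a type and less RNA per cell cannot be told apart. All 10 genes passed the low-count filter, and 0 of 10 were called by edgeR's quasi-likelihood test at an FDR of 0.05, over all 12172 genes tested, of which 0.0575% were called. At an unadjusted p under 0.05 the number of members was also 0, against 352 of the 12172 genes, and DESeq2 and limma-voom called 0 of 10. The log2 fold change (female over male, with TMM scaling) was positive for 8 of 10 genes, against 50.1% of all genes tested. It was 0.38 ± 0.18 (SE) for Ezh2, 0.25 ± 0.15 for Suz12, 0.03 ± 0.14 for Eed, 0.29 ± 0.21 for Jarid2 and -0.09 ± 0.25 for Ezh1. Within PRC1 it was 0.31 ± 0.20 for Rnf2, 0.22 ± 0.18 for Rybp, 0.39 ± 0.23 for Pcgf3, 0.55 ± 0.34 for Pcgf5 and -0.34 ± 0.43 for Ring1. The adjusted p was 0.999 for each of the 10 genes, and the smallest unadjusted p was 0.0752, for Ezh2. In CPM, 1 of 10 members (Ezh2) had every female library above every male one, against 2.69% of tested genes, and 0 of 10 had every female library below, against 7.55%.

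These fold changes moved with single libraries and with GC content. Female replicate 3 stood apart, with a TMM factor of 0.817 against 0.993 to 1.07 in the other 5, and on TMM-scaled log2 CPM 8 of 10 members were higher in it than the mean of the others, with a median difference of 0.44. In female replicate 2 the count was 9 of 10, with a median of 0.12. Female replicate 3 was 0.78 higher than the mean of the others for Pcgf3, 0.63 for Rnf2 and 0.52 for Ezh2. Ezh1 and Ring1 were lower in female replicate 3, by differences of -0.41 and -0.61. Without female replicate 3 the median log2 fold change was 0.13 for the PRC2 genes (0.25 with it) and 0.09 for the PRC1 genes (0.31 with it). For all genes tested the median was 0.01 (0.00 with that library). The fold change of Ezh2 was then 0.24, that of Rnf2 0.09, that of Pcgf3 0.10 and that of Rybp 0.04, and those of Ezh1 (0.04) and Eed (-0.04) had the opposite sign. Leaving out other libraries moved single genes too. Without male replicate 2 the fold change of Ezh2 was 0.25. Pcgf5 was at 0.34 without female replicate 2, 0.87 without male replicate 1 and 0.55 without female replicate 3. Without male replicate 1, Ring1 was at -0.14 and Jarid2 at 0.18, and without female replicate 3 they were at -0.18 and 0.13. Without female replicate 1, Rybp was at 0.37, and without female replicate 2, Ezh1 was at -0.30. Over tested genes, 71.6% of the lowest GC bin and 35.7% of the highest had a positive fold change, with medians of 0.16 and -0.11. Once each library's dependence on length and GC was taken out, 9 of 10 members were positive, and the medians were 0.11 for PRC2 and 0.12 for PRC1, against 0.02 for all genes tested. With library totals in place of TMM factors, which set the median of all genes to -0.12, 7 of 10 were positive and Eed was at -0.11.

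**Figure D4:**
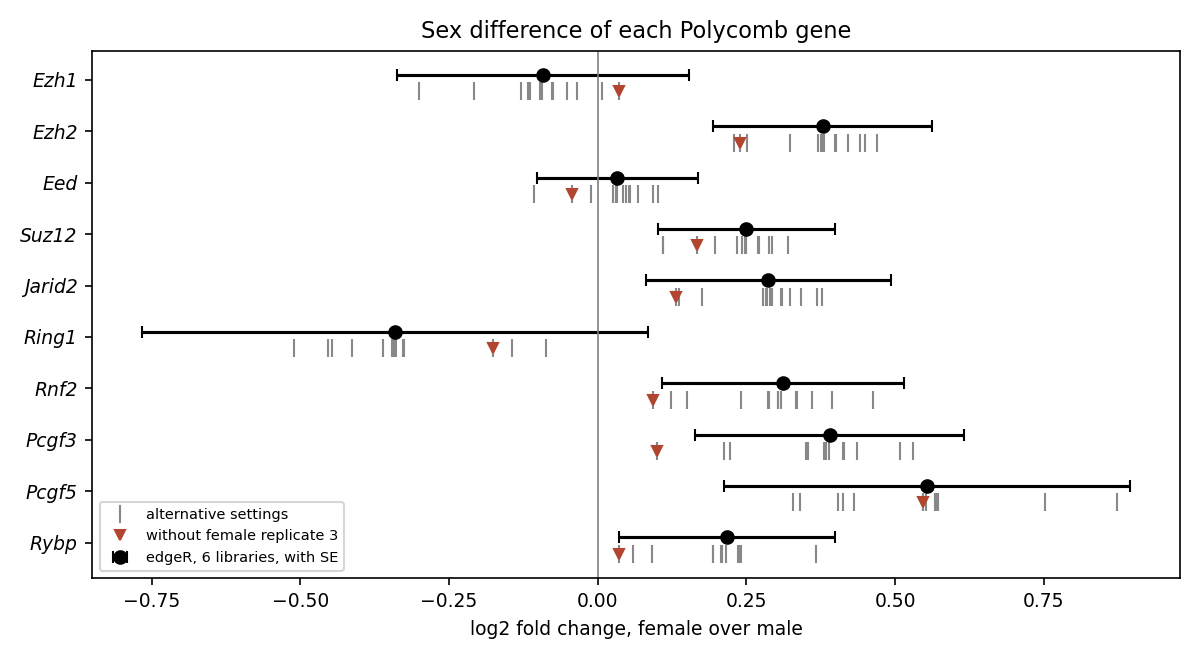
log2 fold change, female over male, of each member: black points with SE from edgeR with 6 libraries, grey ticks for the alternative settings and red triangles for the fit without female replicate 3. Ezh2 stays between 0.23 and 0.47 in the alternatives, while the estimates of Ezh1 and Eed lie on both sides of 0.

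Other subunits of the complexes gave no calls. Of 10 other PRC2 genes 8 were tested, 6 with a positive log2 fold change and 0 called, with a median of 0.21. Rbbp7, a histone-binding subunit also found in other chromatin complexes, had the highest level of this list with 809 ± 158 CPM in females and 904 ± 40.4 in males (SD, n = 3 each). Its partner Rbbp4 had 524 ± 20.7 CPM in females and 506 ± 43.9 in males. Of 24 other PRC1 genes 23 were tested, 14 positive and 0 called, with a median of 0.07. Mga, a subunit of the PCGF6 form, averaged 573 ± 49.996 CPM in females against 508 ± 82.4 in males, and Bmi1, which pairs with RNF2 in canonical PRC1, had 389 ± 48.6 in females and 357 ± 20.8 in males. At an unadjusted p under 0.05 both lists held 0 genes with edgeR, against 352 of all 12172 genes tested. With DESeq2 it was 1 of 9 other PRC2 genes fitted (Aebp2) and 1 of 24 other PRC1 genes (Phc1), against 539 of 20198 genes in all. DESeq2 and limma-voom called 0 of both lists. Without female replicate 3 the medians of the 2 lists were 0.03 and 0.17. With library totals in place of TMM factors they were 0.08 and -0.01, so the sign for the other PRC1 genes depended on the scaling. Across the 44 Polycomb genes, members included, the Spearman correlation of GC content with CPM per kb was -0.75, as a description over genes that share these 6 libraries. The 17 genes in the highest GC bin had a median of 0.426 CPM per kb, and the 14 in the lowest bin had 35.5.

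Enzymes that remove the Polycomb marks were compared from a list of 8 genes, 5 of them positive and 0 called by edgeR, with a median of 0.03. With library totals 3 of 8 were positive, with a median of -0.11, and with length and GC taken out the median was -0.02. Kdm6a, an X-linked demethylase of H3 lysine 27 that escapes X inactivation, had 244.1, 290.1 and 323.7 CPM in female replicates 1 to 3 and 95.9, 113.4 and 114.5 CPM in male replicates 1 to 3. The sexes did not overlap, and the log2 fold change was 1.57 ± 0.22 (SE; edgeR adjusted p = 0.147). DESeq2 called it (adjusted p = 3.2e-06), as did 6 of 14 alternatives in all, with adjusted p over the 14 from 3.2e-06 to 0.889. Its autosomal relative Kdm6b was low, with 2.98 ± 0.360 CPM in females against 1.83 ± 0.0940 in males (0.87 ± 0.33 as log2 fold change). Kdm6a and Kdm6b were the 2 genes of the list at an unadjusted edgeR p under 0.05, against 352 of all 12172 genes tested. DESeq2 called 32 of 20198 genes in all, and limma-voom called 0 of this list. Asxl2, a subunit of the H2A deubiquitinase with BAP1, averaged 271 ± 27.8 CPM in females against 297 ± 26.8 in males.

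**Figure D5:**
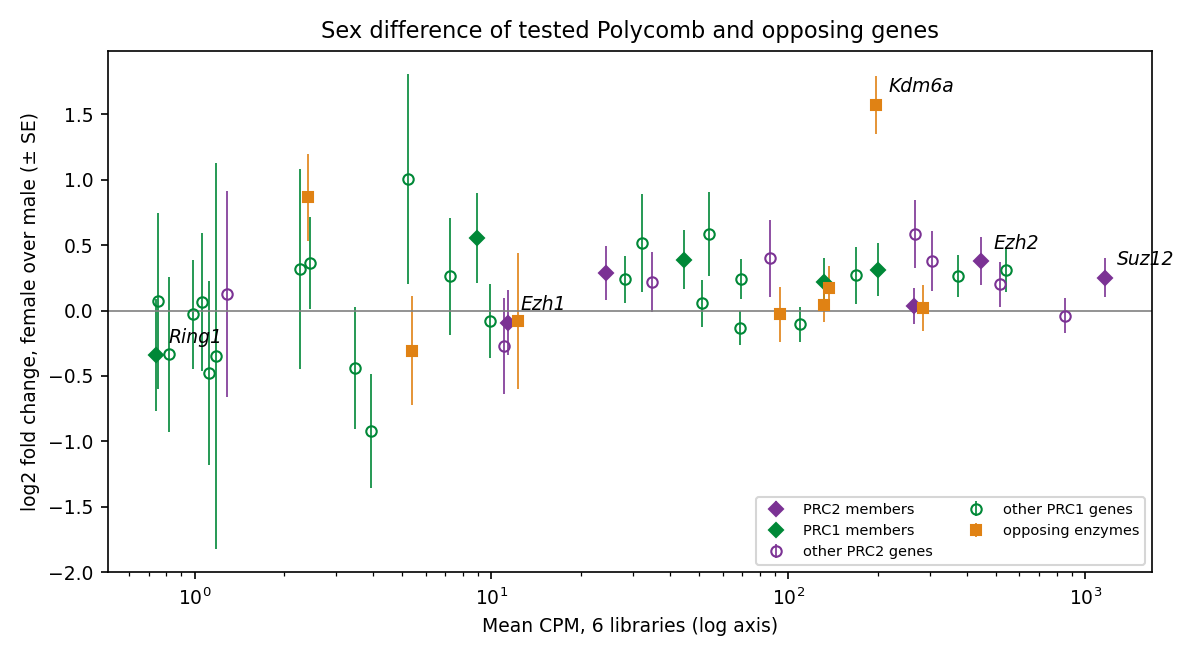
log2 fold change, female over male, with SE against mean CPM over 6 libraries on a log axis, for the tested PRC2 and PRC1 members (diamonds), other PRC2 and PRC1 genes (circles) and opposing enzymes (squares). Kdm6a stands at 1.57, and none of the genes shown was called by edgeR with all 6 libraries.

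Proliferation genes gave no calls. Of 16 genes of S phase and mitosis 8 were positive and 0 called (0 at an unadjusted p under 0.05, 0 with DESeq2 or limma-voom), with a median of 0.00. With library totals 3 of 16 were positive, with a median of -0.13, close to that of all genes (-0.12). Top2a, a DNA topoisomerase of dividing cells, averaged 1911 ± 317 CPM in females against 1955 ± 299 in males, and Pcna, the replication clamp, had 1122 ± 72.6 in females and 1237 ± 81.1 in males. Hox genes and Cdkn2 genes, which are textbook targets of Polycomb silencing, were at or near 0. Of 41 such genes 15 had no count in any library, 37 stayed under 1 CPM in all 6, and 5 were tested, with 0 called (0 at an unadjusted p under 0.05, 0 with DESeq2 or limma-voom). Hoxb2 had the highest level with 5.22 ± 1.81 CPM in females and 4.25 ± 0.396 in males, followed by Hoxb4 with 1.86 ± 0.506 in females and 3.22 ± 0.615 in males.

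The cells were checked against markers. Ms4a1, which encodes CD20, averaged 1517 ± 124 CPM in females against 1581 ± 87.7 in males. Pax5, the factor of B cell identity, averaged 551 ± 35.8 CPM in females against 528 ± 30.3 in males, and the 6 B cell markers summed to 2060 to 2273 CPM in females and to 2055 to 2306 in males. The 7 myeloid markers summed to 5.93 to 12.6 CPM in females and to 2.97 to 3.75 in males. Lyz2, the lysozyme gene of macrophages, averaged 2.64 ± 0.596 CPM in females against 0.321 ± 0.0602 in males, and the integrin gene Itgam 1.99 ± 1.04 in females against 1.11 ± 0.491 in males. All 5 tested were positive and 0 were called by edgeR, while 3 had an unadjusted p under 0.05 and DESeq2 called Lyz2 and Spic. Over all genes, 352 of 12172 had an unadjusted p under 0.05 with edgeR, and DESeq2 called 32 of 20198. T and NK cell markers summed to 5.69 to 10.8 CPM in females and to 2.96 to 6.58 in males, with Ncr1 at 0 in all libraries and Cd3e at 0.0113 ± 0.0196 CPM in females and 0 in males. Klrb1c, a receptor of NK cells, averaged 3.98 ± 2.95 CPM in females against 2.47 ± 1.17 in males. Cd3d, of the T cell receptor complex, averaged 3.10 ± 1.25 CPM in females against 0.984 ± 0.879 in males, with every female library above every male one. Cd8a, also tested, went the other way, with 0.570 ± 0.397 CPM in females against 1.09 ± 0.896 in males (log2 fold change -0.72). Of the 3 genes tested in this list 2 were positive and 0 were called by edgeR, DESeq2 or limma-voom. Cd3d had an unadjusted p under 0.05. Erythroid and platelet markers summed to 0.542 to 2.20 CPM in females and to 0 to 0.117 in males, and DESeq2 called Hbb-bs, a globin gene (0.839 ± 0.666 CPM in females and 0.0307 ± 0.0289 in males), while edgeR tested none of them. Hba-a1, the other globin gene named, averaged 0.174 ± 0.245 CPM in females and was at 0 in males. The plasma cell markers summed to 269 to 455 CPM in females and to 247 to 293 in males, and Irf4 had 164 ± 53.9 CPM in females against 120 ± 16.8 in males. Xbp1, a factor of secretory cells, averaged 105 ± 28.1 CPM in females against 114 ± 9.51 in males. Of the 5 plasma cell genes 0 were called by edgeR and 3 had an unadjusted p under 0.05, while DESeq2 called Igj and Prdm1. Igj averaged 44.8 ± 6.13 CPM in females against 17.5 ± 0.702 in males (log2 fold change 1.51 ± 0.22, SE). Prdm1 averaged 35.5 ± 22.5 CPM in females against 12.5 ± 0.674 in males (1.63 ± 0.39). In both, every female library lay above every male one, against 2.69% of tested genes. The log2 fold change was 0.58 for Irf4, 0.003 for Sdc1 and -0.0003 for Xbp1. The part of these cells in the Polycomb values was not tested.

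Genes with the most similar pattern over the 6 libraries were ranked among those with at least 20 CPM by the Pearson correlation of TMM-scaled log2 CPM, as a description without a test. Nearest to Ezh2 were Hps3, G3bp2 and Slc35a3 (r = 0.996, 0.995 and 0.993), and 334 of 4806 genes had r over 0.9, so the pattern is a common one. Nearest to Ezh1 were Ifnar2, Rnf111 and Ufm1 (r = 0.970, 0.953 and 0.944), with 14 of 4807 genes over 0.9. Ifnar2, an interferon receptor subunit gene, was lowest in female replicate 3 with 23.2 CPM, the library in which Ezh1 was also lowest.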

How the data were processed

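The authors deposited 1 table of estimated counts per gene symbol, 1 column for each animal. The submitters' processing notes name kallisto, DESeq2 and the build GRCm38.p6. Versions, settings and strand use: not given in the sources used here. These counts are not scaled to a common depth.

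CPM was computed from the column total. Counts were rounded and females compared with males with edgeR 4.0.16 in R 4.3.3 (filterByExpr, TMM, glmQLFTest, sex as the only term, Benjamini-Hochberg adjustment over 12172 genes at an FDR of 0.05). Replicates are separate mice by their labels. The fit was tested on simulated data. Alternatives were DESeq2 1.42.0, limma-voom (limma 3.58.1), RLE factors, library totals only, no filter, a minimum of 1 CPM in 3 libraries, a replicate block, leaving out each library, and taking out the dependence on length and GC (natural splines with 4 degrees of freedom, 12025 genes).

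Lengths, GC content and coordinates are from GENCODE M21 (GRCm38), which matched 40160 of 41669 symbols (96.4%). Epop, Ezhip, Adgre1 and Jchain were found under older symbols. Counting error alone sets the floor of 3 counts. The 10 members and all lists were chosen with earlier results of these data known. Genes named beside the members were, of each list, the called ones or else the 2 with the highest mean CPM, with Kdm6a and Kdm6b, and the 3 genes most like Ezh1 and Ezh2. The genes of chromosome 17, the E2F words, Cd3e, Cd8a, Ncr1, Spic, Igj, Prdm1, Sdc1, Aebp2 and Phc1 were named after values were seen. Figures were drawn with matplotlib 3.10.9.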

Additional observations from a re-analysis of the deposited data

How the results depend on the processing

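The number of members called stayed at 0 in all 14 alternatives. Of 139 member fold changes under an alternative, 134 kept their direction and 5 had the opposite sign. These were Ezh1 without female replicate 3 (0.0358) and with length and GC taken out (0.00802), within leave-one-out values of -0.30 to 0.0358, and Eed with library totals only (-0.11), without female replicate 3 (-0.0428) and without male replicate 3 (-0.01). The leave-one-out values of Eed ran from -0.0428 to 0.0929. The smallest unadjusted p of a member was 0.0377 (Rnf2 without female replicate 1, where Ezh2 and Rybp were also under 0.05, as were 1521 of the 12524 genes in that fit). Pcgf5 had 0.0491 without male replicate 1, a fit with 236 of 12394 genes under 0.05. The 7 genes called in the table as a whole became 32 of 20198 with DESeq2 and 11 of 20198 without a filter. The number was 11 with the trend removed and 4 to 12 with a library left out. The ratio of Ezh2 to Ezh1 per length was 183.3 with the shortest transcripts, and that of PRC2 to PRC1 was 3.13 with median and 2.59 with shortest lengths, by the construction of these alternatives. The difference in log2 Ezh2 over Ezh1 ran from 0.23 to 0.71 with a library left out and was 0.35 with the trend removed. Ring1 was not in the fit with at least 1 CPM in 3 libraries.

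The labels give both sexes replicate numbers 1 to 3. Deviations of same-numbered libraries from their group means correlated by 0.222, 0.0423 and 0.0695 over genes. Between differently numbered libraries the correlations ran from -0.207 to 0.120. These values do not settle whether the numbers pair the mice, and the fit with sex as the only term did not pair them. With the replicate block 0 members and 7 genes were called, and the sign-flip exact p of the Ezh2 to Ezh1 difference was 0.25, the smallest that 3 pairs allow.

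The counts of Ring1 (13.7 to 33.9 per library) limit what can be said of it. A difference that missed the threshold here is not shown to be absent.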
